A study of Mus musculus with 12 samples.

Results

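Ptf1a, Pax2, Lhx1, Lhx5, Neurog1, Neurod4, Tfap2a, Tfap2b and Tfap2c are transcription factors of the cerebellar GABAergic interneuron lineage, and they were taken from the deposited table by their gene symbols, 9 of 24421 genes. All 9 were at their highest mean in the P7 libraries and stood at or close to 0 reads, or at a small part of their P7 level, in the P14 and P28 libraries. Lhx1 kept the most of its level at P14 and was the 1 gene of the set whose fall from P7 did not pass the main test, that of limma, although edgeR and DESeq2 called it.

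The RNA came from cerebellar cells of Aldh1l1-GFP mice, on a C57BL/6J background, that were sorted for green fluorescent protein (GFP). Each of 4 ages gave 3 libraries, 12 in all, and the ages are written as P for postnatal with the day (P1, P7, P14, P28). All groups carried the same transgene, in which the promoter of Aldh1l1, an enzyme of folate metabolism used as a marker of astrocytes, drives GFP. The sort therefore selected cells by GFP and not by any of the 9 factors, and the study compared the time points to follow how gene expression of these cells changes with age.

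GABAergic neurons of the cerebellum arise from progenitors of the ventricular zone that express Ptf1a, while granule neurons arise from Atoh1-expressing progenitors of the rhombic lip. Precursors of the inhibitory interneurons keep dividing in the prospective white matter after birth, express Pax2 around their last division, and then migrate outward to the cerebellar cortex. Basic helix-loop-helix (bHLH) factors such as Ptf1a, Neurog1 and Neurod4 act early in such lineages, LIM-homeodomain factors such as Lhx1 and Lhx5 act as the neurons differentiate, and AP-2 factors (Tfap2a, Tfap2b, Tfap2c) are known from GABAergic interneurons of the cerebellum and retina or from other ectodermal tissues.

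The values are normalized counts, which are reads per gene divided by one size factor per library by the authors. The libraries held 6399499 to 14733985 reads on genes, and P7 replicate 2 had the fewest. One read was worth 0.615 to 1.46 normalized counts, and 0 reads of a gene allow up to 3 in the same library, a limit that covers counting error only. Aldh1l1 was present in all 12 libraries, at 936 to 6441 normalized counts, and 8 astrocyte and Bergmann glia markers summed to between 27549 in a P7 library and 321028 in a P28 library. Nothing in the labels says that the 3 libraries of a time point came from separate animals, so the p-values measure only the spread between these libraries. All column names of the table carry the same age, so the time points rest on the sample labels. In such bulk samples, fewer cells of a type and less RNA per cell cannot be told apart.

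Promoter sequences of RefSeq (build GRCm38.p6) were found for 7 of the 9 factors, 11 sequences of 300 bases, and none is given for Lhx5 and Tfap2c. Of these, 3 are shown up to the annotated start, because Ptf1a heads the lineage, Pax2 shares a motif match with it, and Lhx1 was the 1 factor that limma did not call lower at P14 than at P7. They read 5′ to 3′ on the strand of the gene, at chr2:19445413-19445662 (plus strand, Ptf1a), chr19:44755502-44755751 (plus strand, 1 of 3 Pax2 starts) and chr11:84525535-84525784 (minus strand, Lhx1), with motif matches in capitals.
Ptf1a: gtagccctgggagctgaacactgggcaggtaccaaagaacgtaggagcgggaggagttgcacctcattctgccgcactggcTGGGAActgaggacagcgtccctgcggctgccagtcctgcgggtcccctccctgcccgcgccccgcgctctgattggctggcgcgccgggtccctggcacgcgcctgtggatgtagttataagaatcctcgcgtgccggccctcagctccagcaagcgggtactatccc
Pax2: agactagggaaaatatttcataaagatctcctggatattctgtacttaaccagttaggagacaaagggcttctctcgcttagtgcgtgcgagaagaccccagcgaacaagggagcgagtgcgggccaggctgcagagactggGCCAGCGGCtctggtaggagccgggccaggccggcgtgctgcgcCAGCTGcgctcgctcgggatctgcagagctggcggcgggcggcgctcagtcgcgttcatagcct
Lhx1: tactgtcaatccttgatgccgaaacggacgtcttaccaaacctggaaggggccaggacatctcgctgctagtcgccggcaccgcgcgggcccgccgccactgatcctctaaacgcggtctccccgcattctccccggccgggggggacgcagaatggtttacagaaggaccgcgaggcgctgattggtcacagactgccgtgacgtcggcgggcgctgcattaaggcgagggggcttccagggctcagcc
The motifs searched, on both strands, were GCCNNNGGC for AP-2 factors, CANNTG (the E-box) for bHLH factors and TGGGAA, the core that RBPJ binds, a partner of Ptf1a. The capitals in Ptf1a mark TGGGAA, and those in Pax2 mark GCCAGCGGC and then CAGCTG. This window of Pax2 lies wholly before the Pax2 span of the GENCODE annotation (chr19:44756045-44837871). The last bases of its 300-base form were not found in a GENCODE transcript of Pax2. The same 9 letters GCCAGCGGC also stand at positions 269 to 277 of the 300-base Ptf1a window, just past its annotated start. The Lhx1 window holds no match, and it is shared with Lhx1os, a noncoding gene that runs the other way (GRCm38 chr11:84525660-84535831, plus strand). AP-2 letters occurred in 2 of the 11 windows against 16.6% of 32851 promoters, E-boxes in 5 against 72.3%, and TGGGAA in 3 against 25.6%. These matches describe letters only.

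Among the bHLH factors, Ptf1a (chr2:19445663-19447501, plus strand), the factor that commits progenitors to the GABAergic fate, stood at 35.1, 0.714 and 44.7 normalized counts in the 3 P1 libraries and at 104, 48.4 and 95.3 at P7. It had 0 reads in all 3 P14 libraries and in 2 P28 libraries, with 2 reads in the remaining one, P28 replicate 3. The P7 libraries were all above the P1 libraries, and P1 replicate 2, with a single read, lay far below the other 2 of its time point. Part of the gene, 32.6% of the 75-base windows of its transcripts, also occurs in the antisense gene Ptf1aos. Whether strand was used in counting is not stated, and Ptf1aos was listed at no more than 7.41 normalized counts.

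Neurog1 (chr13:56250478-56252163, minus strand), a bHLH factor of progenitors that yield Purkinje cells and interneurons, had 8.00, 9.29 and 36.3 normalized counts at P1 and 82.0, 49.7 and 131 at P7. Its reads, 74 at P1 and 310 at P7 over 3 libraries each, were followed by 0 reads in all 6 libraries of P14 and P28. Neurog1 was thus the only one of the 9 factors without a single read at both later time points. The P7 and P1 libraries did not overlap.

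Neurod4 (chr10:130268152-130280240, minus strand), a bHLH factor of neuronal differentiation, stood at 27.7, 2.14 and 22.0 normalized counts at P1 and at 352, 234 and 312 at P7. It was still read at P14, at 26.5, 4.23 and 11.9, and had 0 reads in all 3 P28 libraries. Its P14 levels were within the range of its P1 levels, whereas Ptf1a and Neurog1 had no read at P14. The ratio of Neurod4 to Ptf1a reads was 0.492 to 0.789 in the 2 P1 libraries with at least 10 reads of both genes and 3.27 to 4.84 in the 3 P7 libraries.

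Of the AP-2 factors, Tfap2b (chr1:19208914-19238576, plus strand) was at 844, 206 and 1799 normalized counts at P1, 4575, 1864 and 4317 at P7, 69.9, 146 and 41.3 at P14, and 30.7, 57.8 and 81.1 at P28. It kept reads in every library and was the 1 factor of the 9 at 10 normalized counts or more in all 12. All P7 libraries were above all others, although P7 replicate 2 lay only just above P1 replicate 3.

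Tfap2a (chr13:40715302-40738376, minus strand), the founding AP-2 gene, followed the same course at 289, 65.7 and 672 normalized counts at P1, 2146, 1055 and 2256 at P7, 14.8, 27.5 and 15.2 at P14, and 0, 7.08 and 32.5 at P28. The order of the libraries within P1 was that of Tfap2b, with replicate 3 highest and replicate 2 lowest. Reads of Tfap2b were 2.68 to 3.14 times those of Tfap2a at P1 and 1.77 to 2.13 times at P7, ranges that did not overlap. Exons of Tfap2a overlap antisense genes, with 7.80% of its 75-base windows shared, and Gm26688 on the other strand stood at 70.1, 18.3 and 48.1 normalized counts at P7 and at 0 reads at P14 and P28.

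Tfap2c (chr2:172549593-172558622, plus strand), known best from trophoblast and germ cells, had 3.08, 2.14 and 6.06 normalized counts at P1 and 142, 58.9 and 221 at P7. At P14 it had 1 read in replicate 2 and 0 in the others, and at P28 it had 0 in all 3 libraries. It was the factor most restricted to P7, with 97.2% of its 12-library sum there, and it passed the filter on low values through the 3 P7 libraries alone. No member shared a 75-base window with another member, so the 3 AP-2 genes were not read through common sequence of that length.

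Lhx5 (chr5:120431699-120441223, plus strand), a LIM-homeodomain factor of early GABAergic neurons, stood at 129, 54.3 and 242 normalized counts at P1 and at 787, 414 and 821 at P7. At P14 it was at 1.06, 21.2 and 0, and at P28 at 32.2, 0 and 1.35. Each later time point thus rested on 1 library, replicate 2 at P14 with 20 of 21 reads and replicate 1 at P28 with 22 of 23.

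Lhx1 (chr11:84518284-84525535, minus strand), its close relative and a factor of Purkinje cells and GABAergic precursors, was at 43.1, 25.0 and 120 normalized counts at P1 and at 431, 483 and 464 at P7. It was still at 96.4, 69.8 and 105 at P14 and at 67.2, 2.36 and 64.9 at P28. Its P7 libraries lay close together (459 ± 26.4, SD, n = 3), and P28 replicate 2, with 2 reads, stood apart from the other 2 of its time point, with 46 and 48. The Lhx1 to Lhx5 ratio of reads was 0.335 to 0.497 at P1 and 0.547 to 1.17 at P7. Lhx1os, the divergent neighbour, was at 70.9, 90.3 and 103 normalized counts at P7 and at 20.1, 69.8 and 34.8 at P14, and had 2 reads at P28, both in replicate 1.

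Pax2 (chr19:44756045-44837871, plus strand), the paired-box factor that marks interneuron precursors, had 217, 65.7 and 514 normalized counts at P1, 2059, 908 and 2154 at P7, 24.4, 10.6 and 35.8 at P14, and 11.7, 43.6 and 1.35 at P28. Its libraries at P14 and P28 overlapped and all lay below those of P1. The ratio of Pax2 to Tfap2a reads was between 0.753 and 1 at P1, lay between 0.861 and 0.960 at P7, and spread from 0.385 to 2.36 at P14, where both genes had few reads. The antisense gene 1700039E22Rik, which lies inside Pax2 (chr19:44828493-44835938, minus strand) without exon overlap, was at 109, 64.1 and 215 normalized counts at P7 and at no more than 1.46 in any P14 or P28 library.

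**Figure D1:**
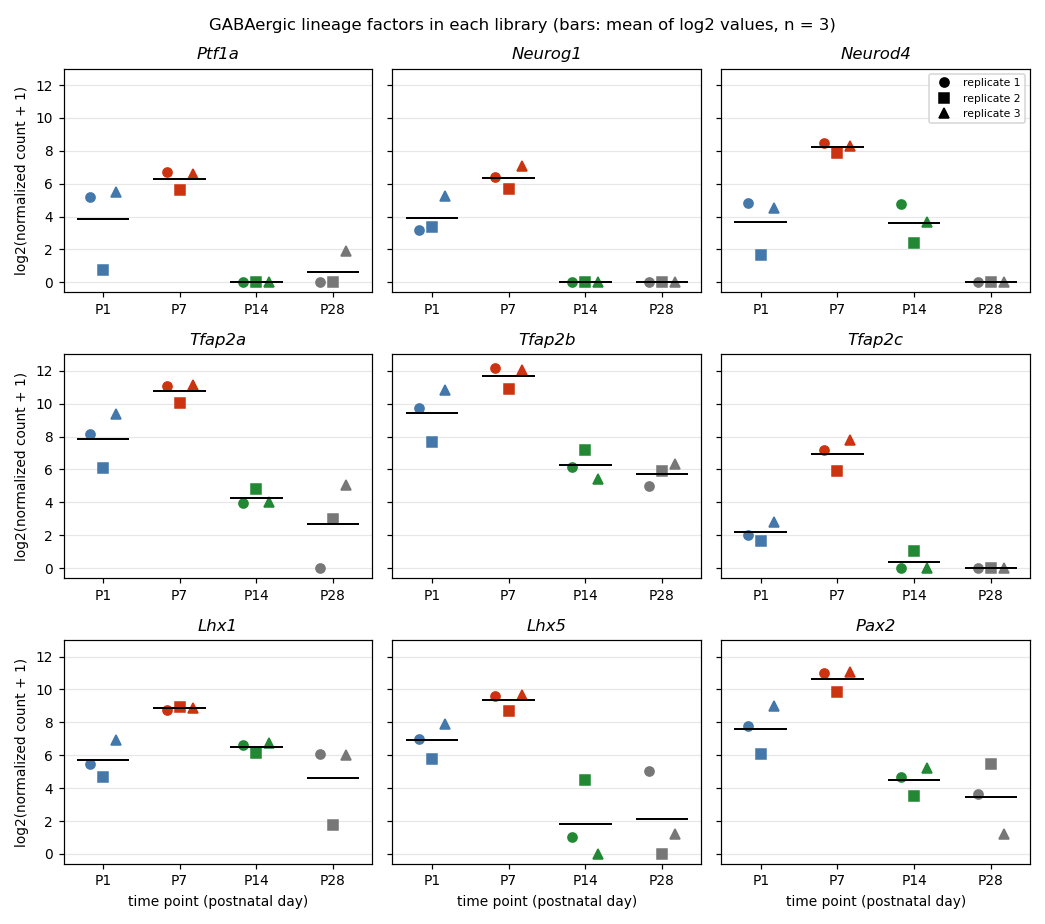
Level of each of the 9 factors in each library, as log2 of the normalized count plus 1 on the vertical axis, by time point on the horizontal axis, with a point for each library (circle, square and triangle for replicates 1, 2 and 3) and a bar at the mean of the log2 values (n = 3). In every panel the 3 P7 points lie above the P1 points, and all P14 and P28 points lie below the P7 points.

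To compare levels between genes, normalized counts were divided by exon length in kilobases. At P7, Tfap2b was highest at 566 ± 236 per kilobase (SD, n = 3), then Tfap2a at 371 ± 135, Pax2 at 316 ± 128 and Lhx5 at 251 ± 84.1. Lhx1 followed at 113 ± 6.48 and Neurod4 at 89.5 ± 17.9, and Ptf1a (54.8 ± 19.9), Neurog1 (51.9 ± 24.3) and Tfap2c (38.2 ± 22.0) were lowest. Neighbours in this order differed by less than the larger of their SDs, except Lhx5 and Lhx1, Lhx1 and Neurod4, and Neurod4 and Ptf1a, which were further apart than either SD. At P1 the order began in the same way with Tfap2b (150 ± 126) and Tfap2a (69.8 ± 62.6), but the SDs were almost as large as the means. At P14, Lhx1 was highest at 22.2 ± 4.54 per kilobase, above Tfap2b at 13.5 ± 8.54. At P28 both were again at the top and within each other's SD.

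The P7 libraries held between 69.8% (Lhx1) and 97.2% (Tfap2c) of the 12-library sum of each factor, while the median over all 15464 genes tested was 24.2%. A highest mean at P7 was found for 9 of the 9 factors and for 26.5% of all genes tested. Genes were tested by limma if they had at least 10 normalized counts in at least 3 libraries, which all 9 factors met. Tfap2c met this through its P7 libraries alone. Ptf1a and Neurog1 also needed P7 libraries to pass. Outside P7, only P1 replicates 1 and 3 of Ptf1a and P1 replicate 3 of Neurog1 reached 10. For Tfap2c, Ptf1a and Neurog1, the share at P7 and the comparisons with P7 therefore depend on that selection. A change was called at an adjusted p under 0.05 (Benjamini-Hochberg over all genes tested) and a log2 change over 0.75, on the scale of log2 of the normalized count plus 1. The steps share libraries, since P7 enters both the first and the second and P14 both the second and the third.

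Between P1 and P7, Neurod4 and Tfap2c rose and the other 7 factors did not pass the test, although every one had its 3 P7 libraries above its 3 P1 libraries. A rise was called by limma for 2 of the 9, against 3.10% of all genes tested. edgeR called 4 and DESeq2 3, where of 15672 genes they called 1004 and 1549 in either direction. A fall was called for 0 of the 9, against 3.91%, and for 0 at an unadjusted p under 0.05 or in edgeR and DESeq2. Libraries that did not overlap, with P7 above P1, were found for 9 of the 9 and for 20.1% of all genes tested. Neurod4 rose by a log2 change of 4.54 ± 0.91 (SE), with a limma adjusted p of 0.00646. Tfap2c rose by 4.79 ± 0.79, with a limma adjusted p of 0.00194. It had entered the test through its P7 libraries alone, so a high level at P7 was a condition of being tested. With no filter on low values its limma adjusted p was 0.00169.
Of the other 7, Tfap2b had a log2 change of 2.29 ± 0.67 (limma adjusted p = 0.0525) and Lhx1 of 3.15 ± 0.93 (0.0547). Pax2 had 3.02 ± 0.94 (0.0693), Neurog1 2.44 ± 0.80 (0.0838) and Tfap2a 2.87 ± 1.04 (0.124). The widest errors were those of Ptf1a, at 2.49 ± 1.12 (0.235), and Lhx5, at 2.42 ± 1.26 (0.331). The median log2 change was 2.87 over the 9 factors and 0.04 over all genes tested. At an unadjusted p under 0.05 there were 8 of the 9, against 2198 of 15464 genes called in either direction. The number was also 8 when limma was fitted on the P1 and P7 libraries alone, against 2300 of all genes tested. With the calls over all genes in brackets, the count was 6 without P1 replicate 3 (985) or without P28 replicate 3 (1361). It was 4 without P28 replicate 1 (1229) or without P28 replicate 2 (1294). The count was 1 without the second replicates of P1 and P7 together (377), when Neurod4 had a limma adjusted p of 0.0942.

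Within P1, replicate 2 stood low against the mean of the other 2 libraries for all of the factors. It was under 0.5 times the mean of replicates 1 and 3 for 9 of the 9 factors, against 7.83% of all genes tested, and was the lowest P1 library for 8 of them, as it was for 35.9% of all genes tested. The ratio ran from 0.0179 for Ptf1a and 0.0864 for Neurod4 to 0.419 for Neurog1 and 0.469 for Tfap2c. Tfap2c had few reads, with 5, 3 and 8 in P1 replicates 1, 2 and 3. Neurog1 was not lowest in replicate 2, with 13 reads in replicate 1, 48 in replicate 3 and 13 in replicate 2. Of 11 other GABAergic progenitor genes, 6 were under 0.5 there, from 0.0141 for Prdm13 upward, and 2 were above 1, Rbpjl at 4.18 and Olig2 at 1.35. Of 9 GABAergic neuron genes, 6 were under 0.5, with Gad1 at 0.376, and 3 were above 1, up to 2.36 for Grm2. Low ratios in this library were not limited to GABAergic genes. Of 8 granule lineage markers, 4 were under 0.5 and 1 was above 1. Of 7 pan-neuronal markers 3 were under 0.5, and of 8 cell division markers 2, with 0 above 1 in either list. Aldh1l1 had a ratio of 0.922 there, and the median over all genes tested was 0.991. P7 replicate 2 was under 0.5 times the other 2 for 6 of the 9 factors, against 4.18% of all genes tested, while Lhx1 was at 1.08 and Neurod4 at 0.706. In the same library Aldh1l1 had a ratio of 0.539 and the endothelial gene Cldn5 one of 7.25, and at P1 Cldn5 was at 3.88. The part of other cell types in these library differences was not tested.

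**Figure D2:**
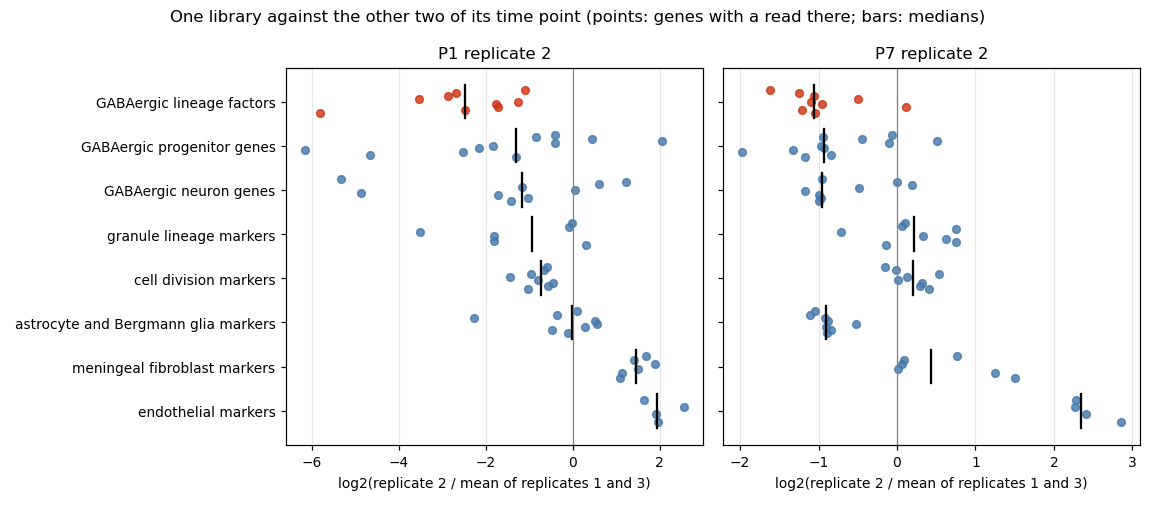
Replicate 2 against the mean of replicates 1 and 3 at P1 (left) and P7 (right), as the log2 of the ratio on the horizontal axis, for the genes of 8 lists on the vertical axis, with a point for each gene that has a read in that library and a bar at the median. At P1 all 9 points of the lineage factors and all 8 of the cell division markers lie below 0. All endothelial and meningeal fibroblast markers lie above 0 at P1, and at P7 the endothelial markers lie above 2.

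From P7 to P14, 8 of the 9 factors fell, against 8.79% of all genes tested, and 0 of the 9 rose, against 10.0%, with 0 also at an unadjusted p under 0.05 and in edgeR and DESeq2. Libraries that did not overlap, with P14 below P7, were found for 9 of the 9 and for 24.8% of all genes tested. Pax2 fell from 1707 ± 693 (SD, n = 3) to 23.6 ± 12.6 normalized counts, a log2 change of -6.17 ± 0.94 (SE) with a limma adjusted p of 3.14e-04. Tfap2a fell from 1819 ± 664 to 19.2 ± 7.21 (log2 change -6.47 ± 1.04, limma adjusted p = 4.90e-04), and Tfap2b from 3585 ± 1496 to 85.7 ± 54.1 (-5.45 ± 0.67, 5.12e-05). Lhx5 fell from 674 ± 226 to 7.41 ± 11.9 (-7.50 ± 1.26, 6.80e-04) and Neurod4 from 299 ± 59.8 to 14.2 ± 11.3 (-4.59 ± 0.91, 0.00236).
Where no read was left at P14, a fold is a lower bound set at 3 reads per library. Ptf1a, with 291 reads at P7, was at least 25.8-fold lower (limma adjusted p = 0.00105), and Neurog1, with 310, at least 27.3-fold lower (5.68e-05). Tfap2c, with 508 reads at P7 and 1 at P14, had a P7 to P14 ratio of 398 with a 95% counting interval of 77.1 to 17069 (4.07e-05). Ptf1a, Neurog1 and Tfap2c all needed P7 libraries to be tested, so a high level at P7 was a condition of these results. The fall of Lhx1, from 459 ± 26.4 to 90.5 ± 18.5 normalized counts, was 5.07-fold, with a log2 change of -2.35 ± 0.93 and a limma adjusted p of 0.0920. It passed when P28 replicate 2 was left out (0.00364), in the fit on P7 and P14 alone (1.44e-04), with a pseudocount of 10 (0.0208), and in edgeR (0.0453) and DESeq2 (0.00754). The difference between the fall of Lhx1 and those of the other factors was not tested. The median log2 change was -6.31 over the 9 factors and -0.09 over all genes tested.

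From P14 to P28, Neurod4 alone was called, lower in 1 of the 9 factors against 8.53% of all genes tested, with 0 of the 9 higher against 4.58%, in limma at an unadjusted p and in edgeR and DESeq2 alike. It went from 40 reads to 0, at least 3.56-fold lower, with a limma adjusted p of 0.0178 that became 0.0727 without P14 replicate 1 and 0.0533 without P14 replicate 3. Lhx1 had a log2 change of -1.87 ± 0.93 with no overlap between the libraries (limma adjusted p = 0.195). Pax2, Tfap2a, Tfap2b, Lhx5, Ptf1a, Neurog1 and Tfap2c overlapped between the 2 time points. For Ptf1a, Neurog1 and Tfap2c no fold can be given, since both time points were at or under the limit of 3 reads per library.

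Over the whole period, P28 against P1, 8 of the 9 factors were lower by limma, against 18.7% of all genes tested. edgeR called 8 lower, and DESeq2, which did not call Lhx5, called 7. Of 15672 genes these tools called 4622 and 5328 in either direction. None of the factors was higher in limma, also at an unadjusted p, or in both other tools, and limma called 13.3% of all genes tested higher. Tfap2b had a log2 change of -3.67 ± 0.67 (limma adjusted p = 7.94e-04), Tfap2a -5.19 ± 1.04 (0.00164), Pax2 -4.15 ± 0.94 (0.00373) and Lhx5 -4.82 ± 1.26 (0.00894). Neurog1 was at least 4.48-fold lower (0.00173) and Neurod4 at least 4.32-fold lower (0.00657). The calls of Ptf1a and Tfap2c were the least stable.
Ptf1a, with 117 reads at P1 and 2 at P28, had a P1 to P28 ratio of 29.7 with a counting interval of 8.28 to 255 and a limma adjusted p of 0.0397, but P1 replicate 2 and P28 replicate 3 overlapped and it was called in 14 of 22 alternatives. Tfap2c, with 16 reads at P1 and 0 at P28, allowed no fold, had a limma adjusted p of 0.0469 and was called in 10 of 22 alternatives. Lhx1 was not called, at a log2 change of -1.07 ± 0.93 (0.397), which turned to 0.37 without P28 replicate 2. The median log2 change was -3.67 over the 9 factors and -0.24 over all genes tested.

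**Figure D3:**
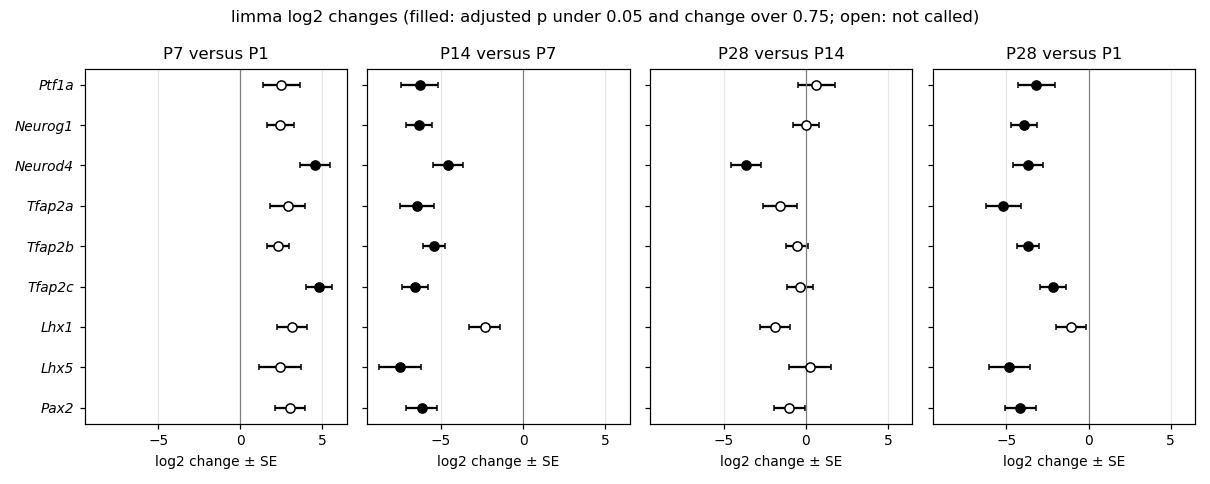
limma log2 change with its standard error (horizontal axis) for each factor (vertical axis) in the 4 comparisons, filled where the change was called and open where it was not. All 9 points lie right of 0 in P7 versus P1 and left of 0 in P14 versus P7, where Lhx1 is the open point, and for genes with 0 reads at a time point the plotted change depends on the pseudocount of 1 and is no bound.

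Other genes of GABAergic progenitors were followed as a list of 11, all tested, with 0 called in either direction from P1 to P7 by limma, edgeR or DESeq2 (3 at an unadjusted limma p under 0.05), 9 lower and 0 higher from P7 to P14, and 7 lower and 0 higher from P1 to P28, counts that were the same in the 3 tools and at an unadjusted p. From P14 to P28 limma and edgeR called 0 lower and 2 higher, DESeq2 1 lower and 2 higher, and an unadjusted limma p under 0.05 gave 2 in each direction. Prdm13, a factor that acts directly downstream of Ptf1a, was at 125, 2.14 and 180 normalized counts at P1 and 519, 200 and 487 at P7, had 0 reads at P14, and had 1 read at P28. Its course was that of Ptf1a, also in P1 replicate 2, and the ratio of Ptf1a to Prdm13 reads was 0.248 to 0.281 in the 2 P1 libraries with 10 reads of both and 0.196 to 0.242 at P7. Neurog2, a proneural bHLH factor, had 748 reads at P7 and 1 at P14. Olig2, a bHLH factor shared with oligodendrocyte precursors, did not pass between P7 and P14 (log2 change 0.87, limma adjusted p = 0.520). Over the same step Rbpj, the Notch effector and Ptf1a partner, fell by 1.10 on the log2 scale (limma adjusted p = 0.00433), and the Notch ligand Dll1 fell by 2.98 (0.00884).

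Genes of GABAergic neurons formed a list of 10, of which limma tested 9. From P1 to P7 limma called 3 higher and 1 lower, edgeR 1 and 0, and DESeq2 4 and 1. An unadjusted limma p under 0.05 gave 6 and 1. From P7 to P14 1 was higher and 6 lower in the 3 tools and at an unadjusted p. From P14 to P28 limma and edgeR called 0 (DESeq2 1 lower, and 1 lower at an unadjusted p under 0.05). From P1 to P28 limma and edgeR called 1 higher and 2 lower, DESeq2 1 and 4, and an unadjusted limma p gave 1 and 5. Gad1, which makes GABA, was at 142, 110 and 444 normalized counts at P1, 1476, 669 and 1194 at P7, and 166, 98.4 and 233 at P14, so that P1 and P14 overlapped. Gad1 rose by a log2 change of 2.46 from P1 to P7 (limma adjusted p = 0.0372) and Gad2, the second GABA-making enzyme, by 2.58 (0.00468), and from P7 to P14 both fell, with log2 changes of -2.75 (0.00890) and -2.40 (0.00286). Skor1, a transcriptional corepressor, rose by 4.05 (0.0404) and fell by 5.14 (0.00444), and the receptor Kit fell by 2.87 from P7 to P14 (0.00306). The parvalbumin gene Pvalb, a marker of mature interneurons and Purkinje cells, went the other way, rising by 3.01 from P7 to P14 (0.00495). Slc6a5, the glycine transporter of glycinergic neurons, had 894 reads at P7 and 2 at P14.

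Relatives and cofactors of the factors were followed in the same way. Of 6 AP-2 relatives and partners, 3 passed the filter of limma. From P1 to P7 limma called 0 of these (1 higher at an unadjusted p under 0.05). Over the 6, edgeR called 0 in that step and DESeq2 1 lower, after a filter on reads that can admit other genes. From P14 to P28 the count was 0 in limma, also at an unadjusted p, and in both other tools. Limma called 1, Kctd15, an inhibitor of AP-2 activity, lower from P7 to P14 (log2 change -1.79, limma adjusted p = 0.0323, not called by edgeR) and from P1 to P28. Tfap2d, which did not pass, was highest at P1, with 8.61 to 71.2 normalized counts, and at no more than 8.69 in any later library. Of 10 LIM cofactors, all tested, limma called 0 higher and 2 lower from P1 to P7, where DESeq2 called 1 higher and 3 lower. From P7 to P14 limma called 0 higher and 2 lower, and DESeq2 1 higher and 2 lower. From P14 to P28 limma called 1 higher and 0 lower, and edgeR and DESeq2 each 1 higher and 1 lower. From P1 to P28 limma called 0 higher and 4 lower, and both other tools 0 higher and 3 lower. At an unadjusted limma p under 0.05, the counts of higher and lower in the same order were 1 and 3, 1 and 3, 1 and 2, and 0 and 4. Ldb1, the cofactor that bridges LIM-homeodomain proteins, was not called in any comparison, with 785 to 1686 normalized counts over the 12 libraries.

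Markers of other cells moved with the 9 factors in some lists and steps and against them in others. Of 8 cell division markers, 8 fell from P7 to P14, and their sum was 18852 to 24767 normalized counts at P7 and 688 to 1237 at P14. Granule lineage markers summed to 1223 to 2247 at P1, 5409 to 6388 at P7 and 9150 to 19002 at P14, with 5 of 8 higher and 1 lower from P1 to P7 and 3 higher and 1 lower from P7 to P14. The granule precursor factor Atoh1 was at 30.3, 34.0 and 45.0 normalized counts at P7 and had 0 reads at P14 and P28. Of 7 pan-neuronal markers 6 rose from P1 to P7, and from P7 to P14 2 rose and 3 fell. Among them Dcx, a gene of young neurons, fell from a mean of 7493 to 536 normalized counts (limma adjusted p = 1.54e-04), while Snap25, a synaptic gene, rose from 2303 to 21594 (2.31e-06). Of 5 choroid plexus markers 3 rose from P1 to P7, and their sum was 301 to 778 at P1, 48117 to 127864 at P7 and 912 to 109406 at P14, with 0 called from P7 to P14 by limma, edgeR or DESeq2 or at an unadjusted p. Of 7 Purkinje cell markers tested, 1 was higher and 1 lower from P1 to P7, and 2 were higher and 1 lower from P7 to P14, and Pcp2, a defining marker, was at 6.20 to 12.7 normalized counts at P7 and 75.2 to 210 at P14. The sum of the 9 factors was 432 to 3458 normalized counts in the P1 libraries, 5115 to 10770 in those of P7, 210 to 280 in those of P14 and 111 to 184 in those of P28. The part of these cell types in the changes of the 9 factors was not tested.

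**Figure D4:**
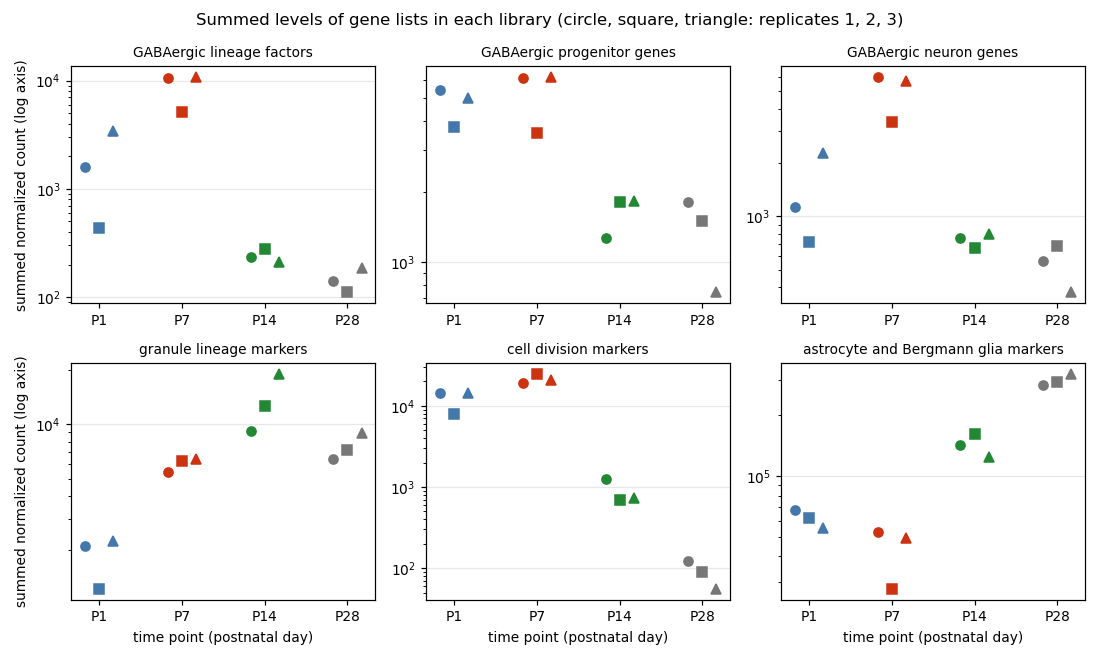
Summed normalized counts (log vertical axes that differ between panels) of 6 gene lists in each library, by time point, with circle, square and triangle for replicates 1, 2 and 3. The sum of the 9 lineage factors is highest at P7 and at 111 to 280 in the 6 libraries of P14 and P28, the granule lineage markers are highest at P14, and the astrocyte and Bergmann glia markers are highest at P28.

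The genes most like each factor were those with the smallest mean absolute difference in centred log2 values over the 12 libraries. For Tfap2b these were Sox11 (0.54), Gsg2 (0.60) and D330045A20Rik (0.63), and for Neurog1 Aldh1b1 (0.40), Crabp1 (0.53) and Klhl14 (0.59). For Ptf1a they were Aldh1b1 (0.57), Atoh1 (0.63) and Igsf9 (0.72), so that the factor of the granule lineage was among the 3 closest to that of the GABAergic lineage. Atoh1 had 0 reads at P14 and P28, and Ptf1a 0 at P14 and 2 at P28. This closeness thus rests in part on libraries without a read of either gene. Tfap2c was closest to 1700039E22Rik (0.49), the antisense gene inside Pax2, then to Klhl14 (0.52) and Fermt1 (0.57). Neurod4 was closest to Insm1 (0.61), Nhlh2 (0.65) and Skor1 (0.77), and Lhx1 to Onecut2 (0.61), Tbc1d30 (0.66) and Celsr3 (0.70). The neighbours of Pax2 outside the set were further away, with Sox11 (0.86), Slfn9 (0.89) and Kif15 (0.90), as were those of Tfap2a, with Fermt1 (0.93), Hist1h1b (0.96) and Igsf9 (0.98). Both had a closer gene within the set, Neurog1 for Pax2 (0.83) and Tfap2b for Tfap2a (0.81). Lhx5 had no gene closer than 1.12, shared by Spc25, Kntc1 and Esco2. Within the set the closest pairs were Neurog1 with Tfap2b (0.61), Ptf1a with Tfap2b (0.63) and Ptf1a with Neurog1 (0.67), and Lhx1 was 1.55 from its nearest, Neurod4, and 2.28 from its relative Lhx5.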

How the data were processed

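The 12 RNA-seq libraries were 3 for each of 4 time points, from cerebellar cells sorted for GFP. The authors aligned reads to mm10 with STAR (2.5.0a in the submitters' processing notes), counted reads per gene on transcripts of UCSC, and applied the size factors of DESeq2 (1.30.1 in those notes). The deposited unit is a signal, normalized counts with one size factor per library. Strand use and the treatment of shared reads are not given in the sources used here. Every value was a whole multiple of the value of 1 read (100% within 0.01), so whole reads were recovered for depth, limits and count tests, and 0 columns lacked a sample. In the symbols, 27 had been turned into dates and 2 were repeated.

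limma 3.58.1 (R 4.3.3) was fitted to log2(value + 1) of all 12 libraries together, a mean for each time point and a variance trend, over 15464 genes with at least 10 in at least 3 libraries. Calls needed a Benjamini-Hochberg adjusted p under 0.05 and a log2 change over 0.75. Alternatives were edgeR 4.0.16 and DESeq2 1.42.0 on recovered reads, other pseudocounts, filters, scalings and thresholds, 2 time points alone, a replicate term and each library left out. edgeR and DESeq2 tested 15672 genes, those with at least 10 reads in at least 3 libraries. Leaving out both second replicates was chosen after seeing the data. Scripts were tested on simulated data.

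Named genes are all 9 factors, of each other list at most the 4 most abundant plus any whose call stands beside a factor, and the 3 genes outside the set most like each factor. One result of a listed gene is not reported here. The factors and lists were chosen with earlier results of these data known. Coordinates are those of GENCODE M21 (GRCm38, which is mm10). Promoters (250 bases before to 50 after a start) come from RefSeq GRCm38.p6. Counting intervals for ratios are exact and hold for counting error only.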

Additional observations from a re-analysis of the deposited data

How the results depend on the processing

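The count of factors higher at P7 than at P1 depended most on the processing. It was 2 as reported, 8 with a pseudocount of 10, with the 2 time points alone and at an unadjusted p, 4 with library totals as the scaling and in edgeR, 3 in DESeq2, 1 without the second replicates of P1 and P7, and 2 to 6 when each library was left out. With at least 10 normalized counts in every library only 1 factor, Tfap2b, was tested, and the counts were 1, 1, 0 and 1 in P7 versus P1, P14 versus P7, P28 versus P14 and P28 versus P1. In P14 versus P7 the count was 8 to 9 when each library was left out. In P28 versus P14 it was 0 with a pseudocount of 10 and 0 to 1 with a library left out, and in P28 versus P1 it was 6 to 8. Uncalled changes turned sign for Pax2 (P28 versus P14, -2.02 to 0.11 with a library left out, the latter without P28 replicate 3), for Lhx5 (P28 versus P14, -0.14 without P14 replicate 1, -0.66 without P14 replicate 3 and -1.22 without P28 replicate 1, up to 1.57 without P14 replicate 2, against 0.26) and for Lhx1 (P28 versus P1, -1.80 to 0.37, the latter without P28 replicate 2). The cause was not tested. Of 18 same-number pairs of libraries, 1 had a correlation of deviations above 0.1 (median 0.03). That pair was P1 replicate 2 with P7 replicate 2, at 0.139. A low correlation over all genes cannot show that the replicate numbers carry no pairing. With the replicate block the counts were 3, 8, 1 and 7. Over all genes, 1084 were called in P7 versus P1 against 2198 at an unadjusted p, 2300 with the 2 time points alone and 633 to 1361 with a library left out. In P28 versus P14, 2027 were called against 3725, 736 and 1199 to 2643, and 1322 with at least 10 in every library. In P28 versus P1, 4948 were called against 3250 with that filter. Library totals moved the median of all genes to -0.34, -0.35 and -0.66 in P14 versus P7, P28 versus P14 and P28 versus P1, and the share of calls that were higher from 53.2%, 34.9% and 41.6% to 33.3%, 16.6% and 20.4%. That share was 52.3% and 57.3% in P28 versus P14 and P28 versus P1 with at least 10 in every library, and 49.5% in P28 versus P14 with the 2 time points alone. Depth limits Ptf1a, Neurog1 and Tfap2c at P14 and P28 and Neurod4 at P28, where up to 3 reads per library cannot be told from 0.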
